A study of Mus musculus with 6 samples.

Results

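The 38 genes described here encode the machinery that copies DNA during S phase, together with enzymes that make its precursors and proteins that act on the chromatin behind the fork. They were chosen by gene symbol, as origin, helicase, polymerase and nucleotide synthesis genes of the deposited table of 37309 genes, and each symbol matched 1 row. The choice was made with earlier results of these data known. The 6 RNA-seq libraries were made from the smooth muscle of the descending aorta, taken from mouse embryos of embryonic day 14.5. The KO libraries carried both Jag1 alleles floxed and Cre recombinase (lox/lox Cre+), the HET libraries 1 floxed and 1 wildtype allele and Cre (lox/+ Cre+), and the WT libraries both alleles floxed and no Cre (lox/lox Cre-), with 2 libraries in each group. Jag1 encodes a membrane-bound ligand of the Notch receptors, and the series title names it as a repressor of the chondrogenic fate of the vessel wall. Cre therefore differed together with Jag1 in both comparisons with WT, and the effects of Cre and of Jag1 cannot be told apart there. KO and HET both carried Cre. The labels name smooth muscle cells as the deleted cells but not the promoter that drove Cre. They do not say whether the 2 libraries of a group came from separate animals, litters or pools. The p-values below therefore measure the spread between libraries, which may be technical.

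A cell prepares to replicate its DNA before S phase by licensing origins: the origin recognition complex, Cdc6 and Cdt1 load the ring of Mcm2 to Mcm7 onto DNA as an inactive helicase. Kinases then recruit Cdc45, the GINS complex and Mcm10, which turns the ring into a moving helicase. Primase with polymerase alpha starts each strand before the leading and lagging strand polymerases take over. Most of these genes are classical targets of the E2F transcription factors, which the retinoblastoma protein holds in check until cyclin-dependent kinases release them. Their transcripts are commonly read as a mark of cells passing from the first gap phase into S phase. Smooth muscle cells of the fetal aorta still divide, unlike most of those of the adult vessel.

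Between 17323962 and 28123670 reads per library fell in genes, and the values below are the authors' scaled read counts, that is reads per gene divided by 1 size factor per library. Jag1 (ENSMUSG00000027276, chromosome 2) measured 19.9 and 35.4 scaled counts in KO libraries, 492 and 584 in HET libraries, and 1965 and 1885 in WT libraries. The 2 KO libraries differed from each other more than those of the other groups did. The median absolute log2 difference within a pair over all genes tested was 0.24 in KO, 0.11 in HET and 0.12 in WT, and over the 38 replication genes it was 0.15, 0.08 and 0.08. The 4 Y-linked genes Ddx3y, Eif2s3y, Kdm5d and Uty summed to 10.9 and 19.6 scaled counts in KO libraries, against 1748 and 1914 in HET libraries and 2103 and 2332 in WT libraries. Embryo sex and genotype cannot be told apart in comparisons with KO. Smooth muscle markers were abundant throughout, led by Acta2, Tagln and Myl9: the summed level of 11 markers was 169837 and 158266 in KO libraries, 203966 and 199345 in HET libraries, and 237842 and 220523 in WT libraries.

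Replication genes were higher as a group in the KO libraries than in the WT libraries, by a small amount. Their summed level was 36219 and 36587 scaled counts in KO libraries, 30936 and 30334 in HET libraries, and 29587 and 29311 in WT libraries. The KO mean stood at 124% and the HET mean at 104% of the WT mean. Both KO libraries lay above both HET libraries and both WT libraries, and the KO libraries differed from each other by less than the KO and WT groups did. In bulk RNA, more cells in S phase and more of these transcripts per cell cannot be told apart. Of the 38 genes, all passed the filter on low values, and 10 rose in KO against WT at an adjusted p under 0.05 (limma), where 5.42% of the 15781 genes tested were called higher and 7.1% lower. They were Rrm2, Mcm4, Cdc6, Mcm5, Chaf1a, Uhrf1, Mcm2, Mcm10, Cdc45 and Mcm3, with rises of 1.27-fold to 1.65-fold on the log2(value + 1) scale. None was called lower by limma, edgeR or DESeq2. At an unadjusted p under 0.05 (limma), 23 were higher and none lower. The share of all genes at that unadjusted threshold was not counted in any comparison, so such counts have no background beside them. The median log2 change of the 38 genes was 0.31 (35 above 0 and 3 below), against -0.00 over all genes tested, of which 49.5% were above 0. Both KO libraries exceeded both WT libraries for 30 of the 38 genes, against 24.8% of all genes tested, and lay below both for 1, Dut, against 25.4%.

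The calls depended on which libraries were in the fit. Of these 10 genes, 3 still passed without WT replicate 1 (Rrm2, Mcm4 and Cdc6), 2 without WT replicate 2 (Rrm2 and Mcm4) and 6 without HET replicate 1, whereas 22 of the 38 genes passed without KO replicate 1 and 20 without KO replicate 2, each time with all 10 included. The share of all genes called higher moved with these counts: it was 2.32% without WT replicate 1, 2.25% without WT replicate 2, 3.55% without HET replicate 1, 8.49% without KO replicate 1 and 17.7% without KO replicate 2. With only the KO and WT libraries in the fit 6 passed, against 3.62% of all genes. The fit of all 3 groups shares its spread with the HET pair, which was narrower than the KO pair. A fit without a library leaves its group with 1, which is then assumed to vary like the other groups. Over the 6 fits without 1 library the median log2 change of the 38 genes was 0.29 to 0.34, so it moved less than the count.

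**Figure D1:**
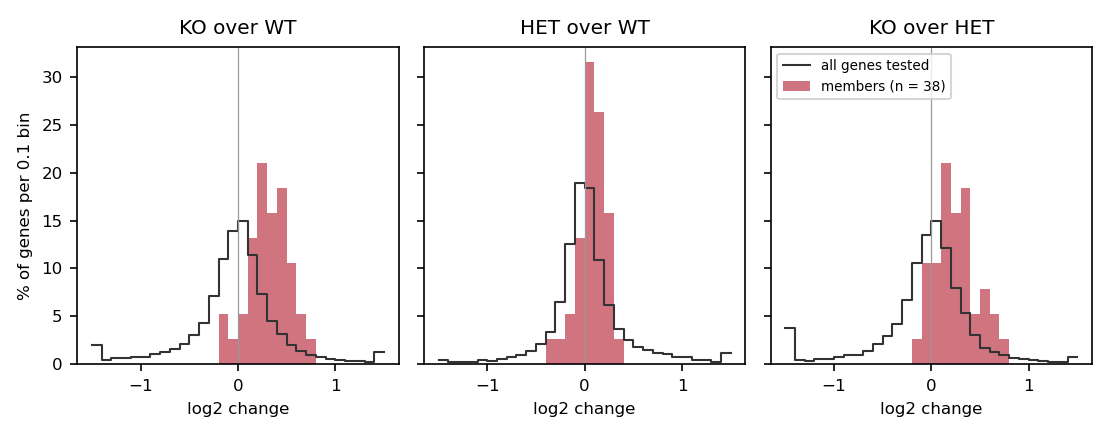
Distribution of log2 changes of the 38 replication genes (red bars) and of all 15781 genes tested (black line), as the percentage of genes in each bin of 0.1, for the 3 comparisons; values beyond 1.5 are put in the end bins. The replication genes are centred at 0.31 in KO over WT, 0.09 in HET over WT and 0.22 in KO over HET, while the medians of all genes are -0.00, 0.00 and 0.00.

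Among the 9 licensing genes, 5 rose in KO against WT and the other 4 did not pass. Cdc6 (ENSMUSG00000017499, chromosome 11), the ATPase that loads the helicase ring, measured 431 and 450 scaled counts in KO libraries, 265 and 269 in HET libraries, and 280 and 254 in WT libraries. The KO libraries stood apart from both other groups, which overlapped. Its log2 change was 0.72 ± 0.12 (SE) in KO over WT (adjusted p = 0.00355, limma), 0.72 ± 0.12 in KO over HET (adjusted p = 0.00348) and 0.00 ± 0.12 in HET over WT (adjusted p = 0.998), the largest rise among the 38 genes in both comparisons with KO on top.

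Of the 6 subunits of the helicase ring, 4 rose in KO over WT. Mcm4 (ENSMUSG00000022673, chromosome 16) measured 2565 and 2366 scaled counts in KO libraries, 1655 and 1668 in HET libraries, and 1602 and 1637 in WT libraries. Mcm4 rose by a log2 change of 0.60 ± 0.09 over WT (adjusted p = 0.00183, limma) and 0.57 ± 0.09 over HET (adjusted p = 0.00244). Mcm5 (ENSMUSG00000005410, chromosome 8) measured 1245 and 1101 in KO libraries, 1020 and 877 in HET libraries, and 778 and 785 in WT libraries. Here the HET libraries lay between the other groups and overlapped neither. The log2 change was 0.58 ± 0.11 in KO over WT (adjusted p = 0.00816), 0.27 ± 0.11 in HET over WT (adjusted p = 0.224) and 0.31 ± 0.11 in KO over HET (adjusted p = 0.119). Mcm2 (ENSMUSG00000002870, chromosome 6) measured 1736 and 1543 in KO libraries, 1317 and 1255 in HET libraries, and 1238 and 1176 in WT libraries. The log2 changes of Mcm2 were 0.44 ± 0.10 over WT (adjusted p = 0.0171) and 0.35 ± 0.10 over HET (adjusted p = 0.0490). Its call against WT was lost in 6 of 17 alternatives, with an adjusted p of 4.01e-05 to 0.186 over them, and its call against HET in 9 of 17. Mcm3 measured 1457 and 1437 in KO libraries, 1224 and 1249 in HET libraries, and 1179.7 and 1101 in WT libraries. Mcm3 rose by 0.34 ± 0.09 over WT (adjusted p = 0.0368), a call lost in 7 of 17 alternatives.

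The other 2 ring subunits, which join the same hexamer in equal number, did not pass. Mcm7 measured 1224 and 1239 scaled counts in KO libraries, 1055 and 1068 in HET libraries, and 1066 and 962 in WT libraries. Its KO libraries lay above all others, with a log2 change over WT of 0.28 (95% interval 0.07 to 0.50, adjusted p = 0.0949, limma). Mcm6 measured 1297 and 1502 in KO libraries, 1283 and 1293 in HET libraries, and 1242 and 1267 in WT libraries. KO replicate 1 lay close to the HET libraries and replicate 2 above them. Its log2 change over WT was 0.15 (95% interval -0.07 to 0.38). Orc6, the smallest subunit of the origin recognition complex, measured 641 and 717 in KO libraries, 481 and 501 in HET libraries, and 498 and 582 in WT libraries. It rose over HET by 0.46 ± 0.12 (adjusted p = 0.0339) and its log2 change over WT was 0.33 ± 0.12 (adjusted p = 0.115), though its call over HET was lost in 6 of 17 alternatives, with an adjusted p from 0.000721 to 0.252. Cdt1, the loading partner of Cdc6, measured 555 and 441 in KO libraries, 468 and 382 in HET libraries, and 478 and 442 in WT libraries. The 3 groups overlapped. Summed over the 9 licensing genes, KO libraries stood at 135% and 130%, HET libraries at 106% and 103%, and WT libraries at 101% and 99.1% of the WT mean.

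**Figure D2:**
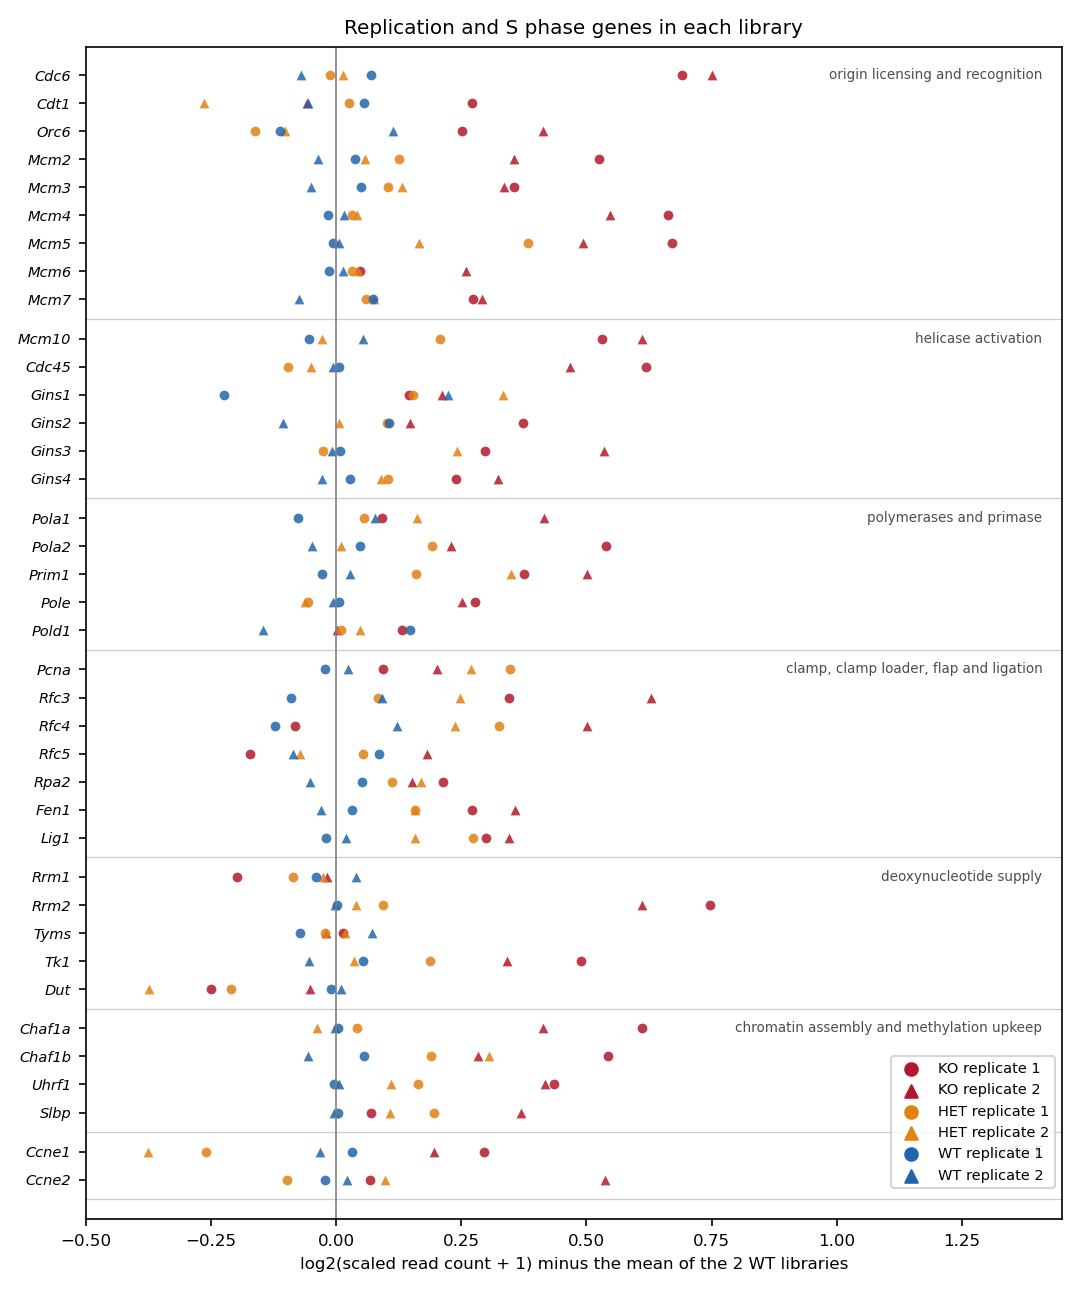
Level of each of the 38 genes in each library, as log2(scaled read count + 1) minus the mean of the 2 WT libraries, with genes ordered by function; circles are replicate 1 and triangles replicate 2. Red KO symbols lie right of both blue WT symbols for 30 of the 38 genes, farthest for Cdc6, Rrm2, Mcm4 and Mcm5, while orange HET symbols mostly lie near the WT symbols.

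Of the 6 genes of helicase activation, Mcm10 and Cdc45 rose and the 4 GINS genes did not pass. Mcm10 (ENSMUSG00000026669, chromosome 2), which the activated helicase needs to unwind DNA, measured 399 and 422 scaled counts in KO libraries, 318 and 271 in HET libraries, and 266 and 286 in WT libraries. Its log2 change was 0.57 ± 0.13 over WT (adjusted p = 0.0182, limma) and 0.48 ± 0.13 over HET (adjusted p = 0.0402), the second of which was lost in 8 of 17 alternatives with an adjusted p from 0.00561 to 0.330. Cdc45 (ENSMUSG00000000028, chromosome 16), a core subunit of the active helicase, measured 318 and 286 in KO libraries, 193 and 199.6 in HET libraries, and 207 and 206 in WT libraries. The KO libraries stood clear of the others, with log2 changes of 0.54 ± 0.13 over WT (adjusted p = 0.0221) and 0.62 ± 0.13 over HET (adjusted p = 0.0122). The call over WT was lost in 6 of 17 alternatives, DESeq2 among them. Gins2, Gins3 and Gins4 were higher in both KO libraries than in both WT libraries, with log2 changes of 0.26, 0.42 and 0.28 (adjusted p = 0.208, 0.132 and 0.145). Gins1 was among the least abundant members, at 65.3 and 68.4 in KO libraries, 65.7 and 74.5 in HET libraries, and 50.3 and 69.0 in WT libraries. Its SE of 0.22 leaves a log2 change over WT of -0.31 to 0.67 within the 95% interval.

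None of the 5 polymerase and primase genes passed in any comparison by limma as described, edgeR or DESeq2. At an unadjusted p under 0.05 Prim1, Pola2 and Pole were higher in KO over WT. Prim1, the catalytic subunit of primase, measured 276 and 301 scaled counts in KO libraries, 237 and 271 in HET libraries, and 208 and 216 in WT libraries. The log2 change of Prim1 over WT was 0.44 ± 0.13 (adjusted p = 0.0632). Pole, the catalytic subunit of the leading strand polymerase epsilon, had the tightest pairs of this group, with 706 and 693 in KO libraries, 560.2 and 558 in HET libraries, and 584 and 580.1 in WT libraries. Its log2 changes were 0.26 ± 0.10 over WT (adjusted p = 0.127) and 0.32 ± 0.10 over HET (adjusted p = 0.0659). Pola2, a polymerase alpha subunit, measured 476 and 384 in KO libraries, 374 and 329 in HET libraries, and 338 and 317 in WT libraries. Pola1, its catalytic partner and the only member on the X chromosome, measured 435 and 545 in KO libraries, 424 and 457 in HET libraries, and 387 and 431 in WT libraries. Pold1, the catalytic subunit of the lagging strand polymerase delta, measured 493 and 451 in KO libraries, 453 and 465 in HET libraries, and 499 and 407 in WT libraries. Its groups overlapped, with a log2 change over WT of 0.07 (95% interval -0.22 to 0.36).

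The clamp, clamp loader and strand-joining genes held no call in any comparison by limma as described, edgeR or DESeq2. At an unadjusted p under 0.05, Rfc3, Fen1 and Lig1 were higher in KO over WT and Pcna in HET over WT. Pcna, the sliding clamp that holds polymerases on DNA, measured 1883 and 2031 scaled counts in KO libraries, 2244 and 2128 in HET libraries, and 1737 and 1794 in WT libraries. It was highest in the HET libraries, with log2 changes of 0.15 ± 0.09 in KO over WT (adjusted p = 0.360), 0.31 ± 0.09 in HET over WT (adjusted p = 0.0753) and -0.16 ± 0.09 in KO over HET (adjusted p = 0.312). Without KO replicate 2 the log2 change of Pcna in KO over HET was -0.22. Rfc3, a clamp loader subunit, measured 322 and 392 in KO libraries, 268 and 301 in HET libraries, and 238 and 269.7 in WT libraries. The log2 change of Rfc3 over WT was 0.49 ± 0.14 (adjusted p = 0.0598). Rfc5, of the same loader, measured 1299 and 1659.6 in KO libraries, 1519 and 1391 in HET libraries, and 1552 and 1379 in WT libraries. The KO pair spanned both other groups, and the log2 change over WT was 0.01 (95% interval -0.29 to 0.30, adjusted p = 0.988). Rfc4 had 78.9 and 118.5 in KO libraries, 104.9 and 98.6 in HET libraries, and 76.6 and 90.9 in WT libraries. This was the widest KO pair of the 38 genes.

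Fen1, which trims the flaps of Okazaki fragments, and Lig1, which seals them, were ordered KO, HET, WT with no overlap between groups. Fen1 measured 837 and 888 scaled counts in KO libraries, 774 and 773 in HET libraries, and 708 and 678 in WT libraries. The log2 change of Fen1 over WT was 0.31 ± 0.10 (adjusted p = 0.0704, limma). Lig1 measured 658 and 679 in KO libraries, 647 and 596 in HET libraries, and 527 and 542 in WT libraries. That of Lig1 was 0.32 ± 0.10 (adjusted p = 0.0784). Rpa2, part of the complex that coats single-stranded DNA, measured 344 and 330.0 in KO libraries, 321 and 334 in HET libraries, and 308 and 286 in WT libraries. Summed over the 7 genes, KO libraries stood at 106% and 120%, HET libraries at 115% and 110%, and WT libraries at 101% and 99.0% of the WT mean, so KO and HET overlapped.

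Of the 5 genes of deoxynucleotide supply, Rrm2 rose and the other 4 did not pass. Rrm2 (ENSMUSG00000020649, chromosome 12), the cell-cycle-regulated subunit of ribonucleotide reductase, measured 4368 and 3977 scaled counts in KO libraries, 2776 and 2673 in HET libraries, and 2606 and 2597 in WT libraries. With log2 changes of 0.68 ± 0.09 over WT (adjusted p = 0.000907, limma) and 0.61 ± 0.09 over HET (adjusted p = 0.00140) it had the smallest p of the 38 genes in both comparisons, and both calls held in all 17 alternatives. Rrm1, the large subunit of the same enzyme, measured 3104 and 3516 in KO libraries, 3357 and 3496 in HET libraries, and 3464 and 3662 in WT libraries. The groups overlapped, and its log2 change over WT was -0.11 (95% interval -0.32 to 0.10), an interval that does not reach that of Rrm2 (0.48 to 0.88). Tk1, the salvage kinase for thymidine, measured 532 and 480.3 in KO libraries, 432 and 388 in HET libraries, and 393 and 365 in WT libraries. The log2 change of Tk1 over WT was 0.42 ± 0.12 (adjusted p = 0.0525), and 5 of 17 alternatives called it, edgeR among them. Tyms, which makes thymidylate, measured 512 and 499.8 in KO libraries, 499 and 513 in HET libraries, and 482 and 533 in WT libraries. Its mean was nearly the same in each group (log2 change over WT 0.00, 95% interval -0.25 to 0.24). Dut, which removes dUTP, measured 468 and 536 in KO libraries, 481 and 429 in HET libraries, and 553 and 560.2 in WT libraries. Dut was the 1 member whose KO libraries both lay below both WT libraries, at a log2 change of -0.15 ± 0.12 (adjusted p = 0.487).

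Chaf1a and Uhrf1 rose among the 4 genes that act on chromatin at the fork, and Chaf1b and Slbp did not pass. Chaf1a (ENSMUSG00000002835, chromosome 17), the large subunit of the factor that places histones on new DNA, measured 1147 and 1001 scaled counts in KO libraries, 773 and 731 in HET libraries, and 752 and 749 in WT libraries. Its log2 change was 0.51 ± 0.11 over WT (adjusted p = 0.0112, limma) and 0.51 ± 0.11 over HET (adjusted p = 0.0116). Chaf1b, its partner subunit, measured 499 and 417 in KO libraries, 390.5 and 423 in HET libraries, and 356 and 329 in WT libraries. KO and HET overlapped for Chaf1b. Uhrf1 (ENSMUSG00000001228, chromosome 17), which brings the maintenance DNA methyltransferase to new DNA, measured 1299.7 and 1284 in KO libraries, 1077 and 1038 in HET libraries, and 958 and 965 in WT libraries. The 3 groups were apart, with log2 changes of 0.43 ± 0.09 in KO over WT (adjusted p = 0.0131), 0.14 ± 0.09 in HET over WT (adjusted p = 0.519) and 0.29 ± 0.09 in KO over HET (adjusted p = 0.0716). Slbp, which binds histone transcripts, measured 762 and 939 in KO libraries, 831 and 783 in HET libraries, and 728 and 724 in WT libraries. The log2 change of Slbp over WT was 0.22 (95% interval -0.05 to 0.49).

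Of the 2 E cyclins, which drive Cdk2 at the start of S phase, Ccne1 rose in KO over HET and neither passed in KO over WT. Ccne1 (ENSMUSG00000002068, chromosome 7) measured 1128 and 1053 scaled counts in KO libraries, 767 and 708 in HET libraries, and 941 and 899 in WT libraries. No 2 groups overlapped, and the HET libraries were lowest. Its change was 0.56 ± 0.10 in KO over HET (adjusted p = 0.00507, limma), 0.25 ± 0.10 in KO over WT (adjusted p = 0.160) and -0.32 ± 0.10 in HET over WT (adjusted p = 0.0979). Ccne2 measured 789 and 1093 in KO libraries, 703 and 806 in HET libraries, and 742 and 764 in WT libraries. For Ccne2, KO replicate 2 stood above the rest and KO replicate 1 between the HET libraries.

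**Figure D3:**
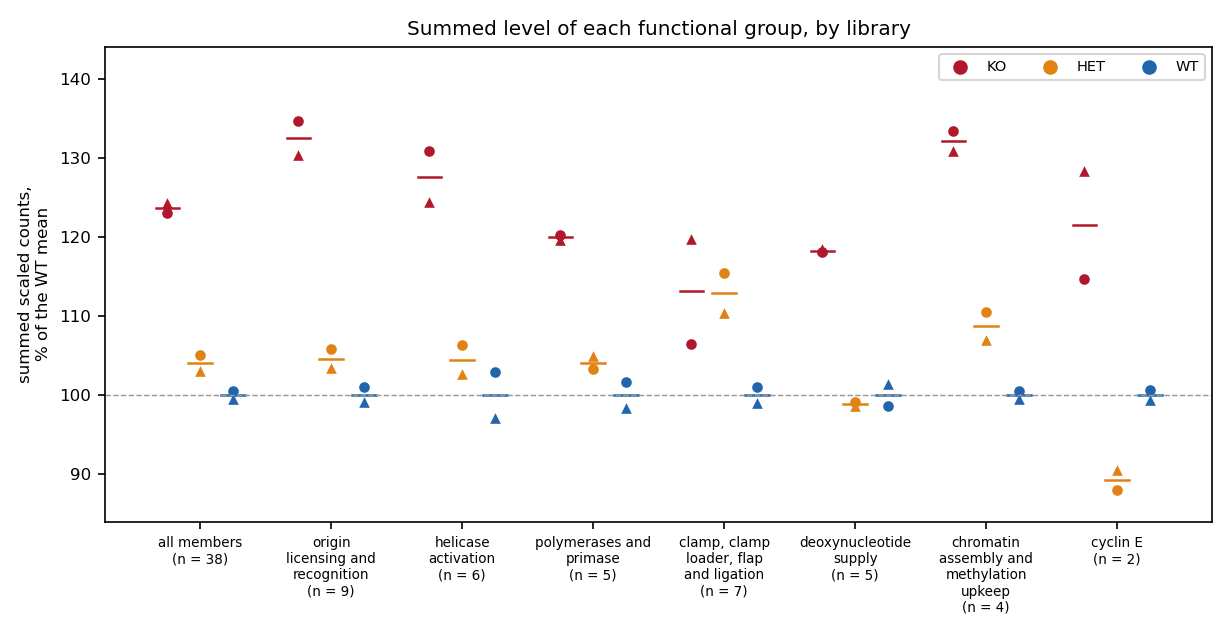
Summed scaled read counts of each functional group in each library, as a percentage of the mean of the 2 WT libraries, for KO, HET and WT from left to right within each group; circles are replicate 1, triangles replicate 2 and short lines the mean, and the axis does not start at 0. KO means reach 132% for both licensing and chromatin genes, and HET means run from 89.2% for the E cyclins to 113% for the clamp and strand-joining genes.

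In HET against WT none of the 38 genes passed by limma as described, edgeR or DESeq2, where 5.33% of all genes tested were called higher and 2.74% lower by limma. At an unadjusted p under 0.05, Pcna and Mcm5 were higher and Ccne1 and Dut lower. The median log2 change was 0.09, with 29 genes above 0 against 51% of all genes tested, and both HET libraries exceeded both WT libraries for 16 genes (28.8% of all genes tested) and lay below both for 4 (26% of all genes tested). The spread in this fit is shared with the KO pair, the widest of the 3. With only the HET and WT libraries in the fit those 4 genes passed: Pcna at 0.31 (adjusted p = 0.00134, limma), Mcm5 at 0.27 (0.0187), Ccne1 at -0.32 (0.00466) and Dut at -0.29 (0.0239). That fit called 11.2% of all genes higher and 8.03% lower, so the 2 members each way are no larger a share than the background. The same 4 passed without KO replicate 1 or without KO replicate 2, while over all 17 alternatives the adjusted p ran from 0.00134 to 0.495 for Pcna, 0.0175 to 0.834 for Mcm5, 0.00427 to 0.548 for Ccne1 and 0.0239 to 0.757 for Dut. The interval around the HET change excludes a rise as large as that in KO for several of the genes that rose there: for Rrm2 the 95% interval in HET over WT was -0.13 to 0.26 and for Mcm4 -0.16 to 0.24, against changes of 0.68 and 0.60 in KO over WT.

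The comparison of KO with HET, in which both groups carried Cre, gave 9 genes higher and none lower by limma (4.39% of all genes tested were called higher and 8.09% lower). They were Rrm2, Mcm4, Cdc6, Ccne1, Chaf1a, Cdc45, Orc6, Mcm10 and Mcm2, at 1.27-fold to 1.65-fold. At an unadjusted p under 0.05, where the share of all genes was not counted, 14 genes were higher and none lower. By edgeR and DESeq2 none was called lower. The median log2 change was 0.22, with 33 genes above 0 against 50.5% of all genes tested, and both KO libraries exceeded both HET libraries for 24 genes, against 25.4% of all genes tested, and lay below both for 1, Pcna, against 25%. Of the 9 genes, 2 passed without HET replicate 1 (Rrm2 and Ccne1) and 3 without HET replicate 2 (Rrm2, Mcm4 and Cdc6), and 17 of the 38 genes passed without KO replicate 2. In these fits 1.09%, 1.37% and 17.5% of all genes were called higher. With only the KO and HET libraries in the fit 6 of the 9 passed, all but Orc6, Mcm10 and Mcm2, against 2.53% of all genes. The fit of all 3 groups shares its spread with the WT pair, which was narrower than the KO pair. DESeq2 called 7 of the 9, all but Mcm10 and Mcm2, against 3.81% of all genes. Both comparisons with KO on top share the KO libraries and so are not independent of each other.

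**Figure D4:**
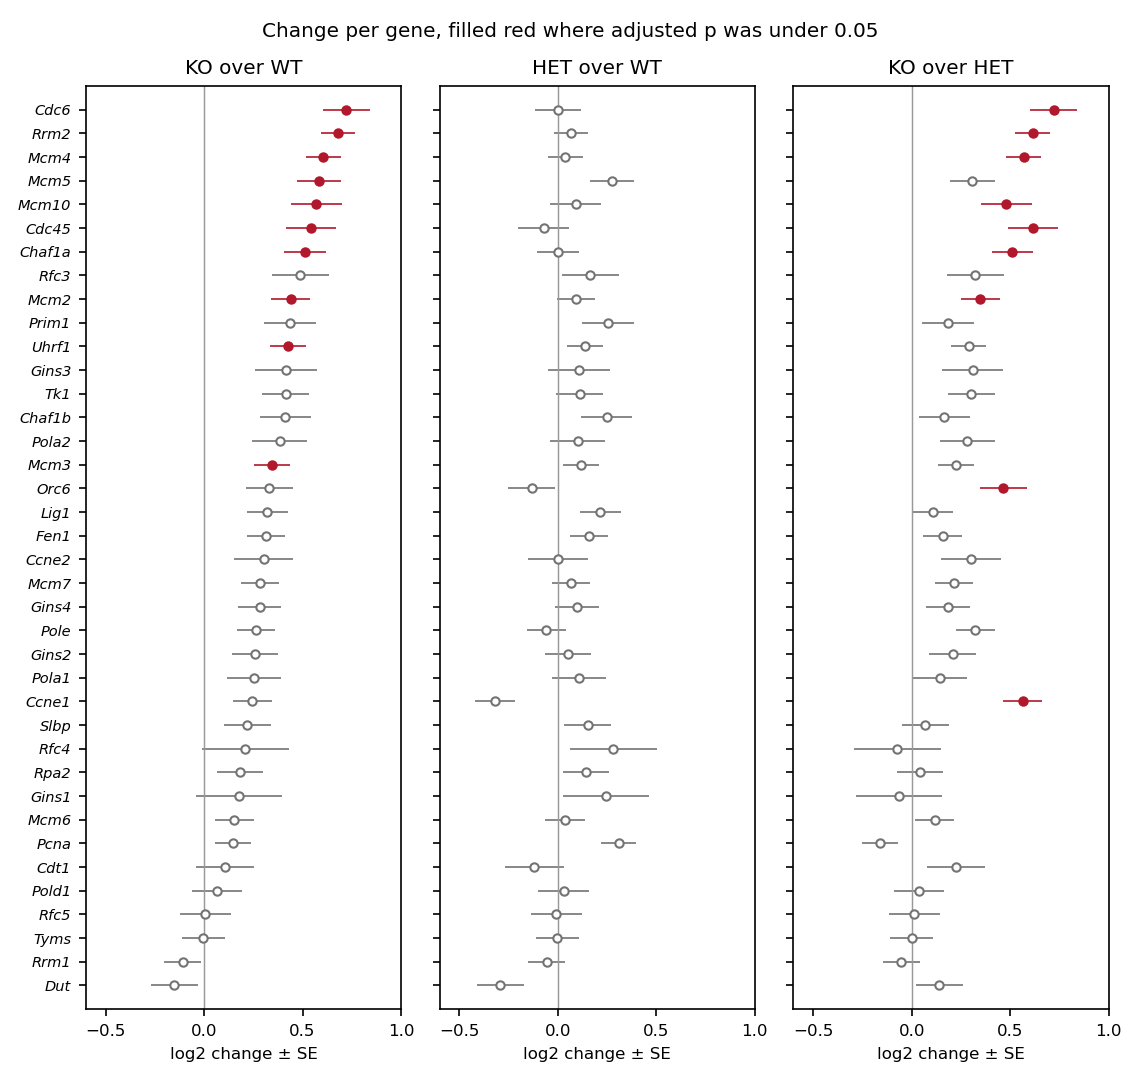
Log2 change ± SE of each of the 38 genes on the log2(scaled read count + 1) scale in KO over WT, HET over WT and KO over HET, in the order of KO over WT; red filled points passed an adjusted p of 0.05 (limma). There are 10 red points in KO over WT, 0 in HET over WT and 9 in KO over HET. Several genes, Ccne1 and Pcna among them, change side between panels.

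The authors' deposited table, made by their own count test, listed 9 of the 38 genes at an adjusted p under 0.05 in KO against WT, 0 in HET against WT and 6 in KO against HET. Over all genes the deposited table listed 1615, 1139 and 1517, higher and lower together. Each of the 9 members and of the 6 members listed there was higher in KO. The 9 were all but Mcm3 of the 10 called here.

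To show what stands before the genes that rose, upstream sequences were taken from RefSeq (GRCm38.p6, which is not the build of the deposited values), as windows of 250 bases before to 50 after the gene start. They were present for 32 of the 38 genes, in 37 windows. E2F-type motifs were searched on both strands as TTTCCCGC, TTTGGCGC, TTTCGCGC, TTTGCCGC and TTCCCGCC, which can overlap each other. Such a motif lay in 17 of the 37 windows (45.9%), against 3.89% of all 32851 windows and 6.41% of the 12524 windows of genes tested here. By call in KO over WT, 5 of the 9 genes that rose and had a window held a match, and 11 of the 23 genes that did not pass and had one. The CCAAT box bound by NF-Y, searched as CCAAT on both strands, was in 8 of those 9 genes and 11 of those 23, and in 37.6% of the windows of genes tested. The Rbpj motif GTGGGAA, the core of the site bound by the DNA-binding partner of Notch, was in 3 of the 37 windows (8.11%) against 6.12% of the windows of genes tested. These matches are letters in a window and show no binding.

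The 5 genes that rose with a match were Cdc6, Mcm3, Mcm5, Chaf1a and Uhrf1, and in Mcm3 it lay after the gene start. The stretches below hold an E2F-type match upstream of Cdc6, Mcm5, Chaf1a and Uhrf1, each with 30 bases on either side and the match in capitals, and the last is the 100 bases before the start of Rrm2, the gene of smallest p, whose window held no match. Coordinates are of GRCm38.p6, all on the plus strand.
Cdc6, chr11:98907983-98908050: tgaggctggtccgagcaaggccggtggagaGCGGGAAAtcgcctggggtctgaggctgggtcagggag
Mcm5, chr8:75109326-75109397: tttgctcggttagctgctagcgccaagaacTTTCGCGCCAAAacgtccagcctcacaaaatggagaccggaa
Chaf1a, chr17:56040339-56040406: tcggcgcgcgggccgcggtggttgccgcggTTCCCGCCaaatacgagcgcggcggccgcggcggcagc
Uhrf1, chr17:56303259-56303326: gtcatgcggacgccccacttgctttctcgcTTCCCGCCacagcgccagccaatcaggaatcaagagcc
Rrm2, chr12:24708154-24708253: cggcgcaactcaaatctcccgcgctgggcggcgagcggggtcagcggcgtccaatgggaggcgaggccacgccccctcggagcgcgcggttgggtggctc

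In Mcm5 the capitals are a pair of overlapping matches, 1 on each strand, and in Cdc6 the match is on the minus strand. A second Uhrf1 window, at another gene start, held a different match and is not shown. The stretch of Uhrf1 also holds a CCAAT box on the plus strand, and so does that of Rrm2. Among the 5 genes shown the log2 changes in KO over WT run from 0.43 for Uhrf1 to 0.72 for Cdc6. Rrm2, whose window held none of the exact E2F-type motifs searched, was at 0.68. Sequences that differ from these motifs by a base were not searched.

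Levels can be compared between genes only per length, for which the authors' mean RPKM of each group was used. The 38 genes had a median of 5.10 RPKM in KO, 4.49 in HET and 4.11 in WT. Rrm2 was the highest in KO (40.3 RPKM, against 26.3 in HET and 25.1 in WT), while Rrm1 was the highest in HET (30.8) and WT (32.0, against 29.7 in KO). The order of the 2 reductase subunits was thus turned in KO on this per-length scale. Pcna had 24.7 RPKM in KO, 27.6 in HET and 22.3 in WT. The lowest were Gins1 in KO (1.29 RPKM) and Mcm10 in HET (0.984) and WT (0.922). The deposited gene lengths, from 1364 bases for Gins4 to 11473 for Pole, enter these values directly, and these are group means without an error.

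Other genes of the same processes were read from lists that do not overlap the 38. Of all genes tested, 5.42% were called higher in KO over WT and 7.1% lower. Among 17 other origin and firing genes, 1 rose in KO over WT, the histone chaperone Dnajc9 at 0.51 ± 0.11 (adjusted p = 0.0125, limma), and the median log2 change was -0.00. Among 25 other fork genes 5 rose and 20 did not pass, with a median of 0.27. Those that rose were the clamp-associated factor gene 2810417H13Rik (0.51 ± 0.10), the checkpoint adaptor Clspn (0.54 ± 0.12), Rpa1 (0.39 ± 0.09), the exonuclease Exo1 (0.55 ± 0.14) and Timeless (0.46 ± 0.13). Of 22 other nucleotide supply genes, Umps and Samhd1 rose (median 0.10). Samhd1, which degrades deoxynucleotides and is also abundant in myeloid cells, measured 2183 and 2288 scaled counts in KO libraries, 2705 and 2710 in HET libraries, and 1729 and 1684 in WT libraries. It also rose in HET over WT (0.67, adjusted p = 0.00146). Of 15 other replication chromatin genes 4 rose (Ezh2, Tonsl, Dnmt1 and Asf1b, median 0.11), with Dnmt1, the methyltransferase that Uhrf1 recruits, at 0.39 ± 0.10 (adjusted p = 0.0295).

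Among 22 E2F, Rb and S phase kinase genes, 4 rose in KO over WT and 1 fell, with a median of 0.12. Those that rose were Fbxo5, an inhibitor of the anaphase-promoting complex, at 0.65 ± 0.13 (adjusted p = 0.00817, limma), the repressor-type E2f7 at 0.51 ± 0.12 (0.0186) and E2f8 at 0.50 ± 0.12 (0.0193), and the S phase cyclin Ccna2 at 0.37 ± 0.10 (0.0418). E2f2 fell by 0.86 (adjusted p = 0.0205), at 42.6 and 37.9 scaled counts in KO libraries, 82.1 and 87.8 in HET libraries, and 68.1 and 79.4 in WT libraries. E2f1 measured 1232 and 962 in KO libraries, 912 and 727 in HET libraries, and 839 and 830 in WT libraries (0.38 ± 0.15, adjusted p = 0.134). Ccnd1, the cyclin that opens the way to S phase, was the 1 of 12 D cyclin, Cdk4/6 and Cdk inhibitor genes that passed in KO over WT. It measured 9931 and 9235 in KO libraries, 6013 and 6097 in HET libraries, and 4456 and 4423 in WT libraries. Ccnd1 rose by a log2 change of 1.11 ± 0.08 over WT (adjusted p = 4.88e-05), 0.66 ± 0.08 over HET (0.000578), and by 0.45 ± 0.08 in HET over WT (0.00941).

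Genes of mitosis, read in the same libraries, had 16 of 36 higher in KO over WT, against 5.42% of all genes tested, and the other 20 did not pass. Their median log2 change was 0.40 (0.10 in HET over WT and 0.27 in KO over HET). Their summed level was 36136 and 37147 scaled counts in KO libraries, 29329.8 and 30130.5 in HET libraries, and 27271 and 28566 in WT libraries. Those of smallest p were Ect2, needed for cytokinesis, at 0.67 ± 0.11 (adjusted p = 0.00365, limma), and the spindle proteins Nusap1 at 0.58 ± 0.11 and Tpx2 at 0.42 ± 0.08. Whether replication and mitosis genes differ in the size of their change was not tested. Of 25 replication-dependent histone genes 13 passed the filter, and 1, the linker histone Hist1h1c, fell (-0.53 ± 0.10, adjusted p = 0.00582, limma). Their median log2 change was -0.25, opposite in sign to that of the replication genes. Both KO libraries lay below both WT libraries for 6 of 13 (25.4% of all genes tested) and above for 1 (24.8%). The 25 genes summed to 3012 and 3399 scaled counts in KO libraries, 3727 and 3481 in HET libraries, and 4201 and 4162 in WT libraries. Histone transcripts mostly lack a poly(A) tail and the genes are near-identical copies, so their counts are uncertain here.

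Markers of other cell types that the sample could hold also differed between genotypes. Summed over 23 macrophage and leukocyte markers, led by Lyz2, Csf1r and C1qb, the level was 14334 and 13645.5 scaled counts in KO libraries, 71528 and 66555 in HET libraries, and 34148 and 34349.5 in WT libraries. All 21 that were tested fell in KO over WT, where 7.1% of all genes tested were called lower and 5.42% higher. Of the 21, 18 rose in HET over WT, where 5.33% of all genes tested were called higher. These markers were lowest in KO, where the summed replication genes were highest. They were highest in HET, where the replication sum stood at 104% of the WT mean. The part of these markers in the replication values was not tested. The 14 erythroid markers summed to 1878 and 2943 scaled counts in KO libraries, 2722 and 2928 in HET libraries, and 3041 and 3259 in WT libraries. Nearly all of this was Tfrc, the transferrin receptor that many dividing cells also express, followed by Alas2 and Epor. Of the 14, 7 were listed at 0 in all 6 libraries, Hbb-b1, Hba-a1 and Gata1 among them, and Klf1 reached at most 5.44. The 14 chondrocyte markers, led by Col11a1, Sox9 and Col2a1, summed to 5099 and 5097 in KO libraries, 4013 and 4265 in HET libraries, and 4745 and 4810 in WT libraries, with 5 of 10 tested higher and 1 lower in KO over WT. Endothelial markers, led by Flt1, Eng and Kdr, summed to 3383 and 2915 in KO libraries, 3679 and 3936 in HET libraries, and 5217 and 5076 in WT libraries. They did not move together: of 9 tested, Kdr was called higher and Vwf, Flt1 and Emcn lower in KO over WT. The median log2 change of the 9 was 0.14. Fibroblast markers, led by Dcn, Pdgfra and Twist2, summed to 4793 and 4584 in KO libraries, 7414 and 7309 in HET libraries, and 4299 and 4409.8 in WT libraries. Here too directions differed: of 10 tested, Pdgfra was called higher and Dcn and Col14a1 lower in KO over WT. The median log2 change of the 10 was -0.20. Neural markers, led by Tubb3, Stmn2 and Fabp7, summed to 1430.2 and 1309 in KO libraries, 746 and 765 in HET libraries, and 974 and 955 in WT libraries. Epithelial and mesothelial markers, led by Upk1b, Upk3b and Lrrn4, summed to 4008 and 3463 in KO libraries, 1779 and 1941 in HET libraries, and 4607 and 4774 in WT libraries. Of smooth muscle markers 8 of 11 fell in KO over WT and 3 did not pass, beside the higher replication genes, and the part of cell makeup in these changes was not tested.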

How the data were processed

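The deposited table gave, for 37309 genes, 1 signal value per library (the authors' read count per gene divided by a size factor), the authors' mean RPKM per group, log2 ratios and adjusted p-values of 3 comparisons. Per the labels, 500 ng of total RNA had gone into a TruSeq library. The submitters' processing notes name the genome build mm9, the tools DESeq (1.16.0), TopHat2 (2.0.4) and HTSeq (0.5.4p3), and no role or setting of any. The deposited log2 ratios ran opposite to the order in their names, as checked on the values. The authors' RPKM rested on the scaled counts and 1 total common to all groups, as checked on the values. All values (100%) were whole reads within 0.001 once divided by their step, which gave the reads per library.

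Scaled counts were tested as log2(value + 1) for 15781 genes with at least 10 in at least 2 libraries, with limma 3.58.1 (R 4.3.3): 1 fit over the 3 groups, a mean trend in the variance, 3 residual and 6.171 prior degrees of freedom, and Benjamini-Hochberg adjustment over all genes tested. A call is an adjusted p under 0.05. The 38 genes had 56 to 4819 reads per library and SEs of 0.0874 to 0.220. On recovered reads, edgeR 4.0.16 called 904 genes higher and 1122 lower in KO over WT, and DESeq2 1.42.0 784 and 987, against 856 and 1121 by limma. On simulated counts for KO over WT (15691 genes), 95% of 1.5-fold and 100% of 2-fold changes were recovered. The simulation gave all genes and all groups the same dispersion, without the wider KO pair of the data, and changed only genes of higher mean. It is a check of the fit and does not give the power for the 38 genes. How strand and near-identical copies were counted is not given in the sources used here.

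The 38 genes and all other lists were chosen with earlier results of these data known. Full values were given, in each comparison, to the 8 called genes of smallest p and to the 3 of smallest change in KO over WT (Tyms, Rfc5 and Pold1), and other members by their values or ranges. Of each other list up to 4 called genes of smallest p were named, and of each cell type list the 3 of highest mean. Timeless, Ccna2, E2f1 and the erythroid genes were named after their values were seen. Alternatives were other pseudocounts, filters, scalings and tools, the fit of only 2 groups, a replicate block, and each library left out.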

Additional observations from a re-analysis of the deposited data

How the results depend on the processing

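With 17 alternatives, Rrm2 and Mcm4 kept their call in KO over WT in each, with adjusted p from 3.07e-08 to 0.0222 and from 5.2e-07 to 0.0404 (limma, edgeR or DESeq2). Cdc6 lost it without WT replicate 2 alone (0.0646). The count of members higher in KO over WT was 10, where 5.42% of all genes were called higher. It was 6 with only the KO and WT libraries in the fit, against 3.62% of all genes. In KO over HET the count was 9 against 4.39% of all genes, and 5 against 2.79% without the mean trend in the variance. In HET over WT, 2 were higher and 2 lower with only those 2 groups in the fit, against 0 and 0. That fit called 11.2% of all genes higher and 8.03% lower. Leaving out 1 library gave 2 to 22 higher in KO over WT, 0 to 2 higher and 0 to 2 lower in HET over WT, and 2 to 17 higher and 0 to 1 lower in KO over HET. The share of all genes called higher ran from 2.25% to 17.7% in KO over WT, 1.37% to 11.2% in HET over WT and 1.09% to 17.5% in KO over HET over the same fits. The lone library of such a group is assumed to vary like the other groups.

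For the genes of smallest change the sign turned: Rfc5 was at -0.0068 with TMM scaling, and without 1 library Rfc5 ran from -0.1714 to 0.182, Tyms from -0.0753 to 0.069 and Pold1 from -0.0801 to 0.2133 (log2, KO over WT). The cause was not tested.

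The groups share replicate numbers, but the labels do not say that a number marks a shared animal, litter or day. Deviations of same-numbered libraries correlated across 15781 genes at 0.139 (KO and HET), 0.199 (KO and WT) and 0.168 (HET and WT), and replicate 1 was the deeper library in each group. With the replicate number as a block, 14 members were higher in KO over WT (Chaf1b, Prim1, Rfc3 and Tk1 in addition), 1 in HET over WT (Pcna, adjusted p = 0.0488, limma) and 11 in KO over HET (Pole and Uhrf1 in addition). Of all genes, 7.2%, 6.49% and 6.34% were then called higher. Quantile normalization also called Pole in KO over HET. With 2 libraries a group, changes near the SEs of 0.0874 to 0.220 are not detectable.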
